A study of Mus musculus with 4 samples.

Results

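Retinoids are the active derivatives of vitamin A. Retinol travels in plasma on retinol binding protein, enters cells partly through a membrane receptor, and is oxidized first to retinal and then to retinoic acid, which cellular binding proteins carry to nuclear receptors that bind DNA as dimers of a retinoic acid receptor and a retinoid X receptor. White fat stores retinol, secretes its carrier and makes retinoic acid, and adipocytes and their precursors respond to it. The 9 retinoid genes described here were found by symbol in the normalized counts table, 9 of its 39179 genes. They are the carrier Rbp4 and its receptor Stra6, the oxidizing enzymes Dhrs9, Aldh1a1, Aldh1a2 and Aldh1a3, the retinoic acid binding proteins Crabp1 and Crabp2, and the receptor Rarb. A mean normalized count of 10 was needed for a test, which 8 of the 9 reached and Crabp1 did not.

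Polyadenylated RNA from epididymal white adipose tissue, a fat pad lying on the male reproductive tract, was sequenced in 2 libraries from mice labelled Nck2 KO (genotype label Nck2 mutant, Nck2-/- in the design) and in 2 from mice labelled WT (Nck2+/+), all on a mixed genetic background. Nck2 encodes an adaptor protein that couples tyrosine-phosphorylated receptors to actin regulators, and the design asks how gene expression of the pad differs between these genotypes. Age, diet, the nature of the Nck2 allele and whether a library came from 1 or several animals are not stated in those labels. The p-values therefore measure only the spread between these samples, which may be technical. Libraries held 37980391 and 33880872 reads assigned to genes in KO, and 31831904 and 34056187 in WT. Values are normalized counts, which correct for library depth; each log2 fold change is the KO mean minus the WT mean of log2(normalized count + 1), given with its standard error (SE), and adjusted p-values are from limma over 16710 genes unless another source is named.

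The label of the tissue was checked against marker lists. All 22 mature adipocyte genes were detected in all libraries, with Car3, Lpl and Fabp4 the most abundant, and the list took 7.49% and 7.93% of reads in KO against 3.48% and 2.36% in WT. A list of 23 epididymis and male tract genes, led by Akr1b7, Crisp1 and Spink8, took 0.00173% and 0.0014% of reads in KO against 3.56% and 4.54% in WT, and 9 of the 23 had no read in either KO library. Smooth muscle genes, led by Myh11, Mylk and Acta2, took 0.0574% and 0.0656% in KO against 1.69% and 2.3% in WT. Nck2 itself was at 1076 and 947 in KO against 1279 and 1667 in WT (log2 fold change -0.53, SE 0.16, adjusted p = 0.0509), a sum over all its exons. In such bulk samples, fewer cells of a type and less RNA per cell cannot be told apart, and the retinoid values below are to be read beside these marker shares. Of the other lists, 7 of 10 endothelial and 10 of 10 macrophage genes rose, where 22.4% of all tested genes did so. A seminal vesicle list took 0.135% of reads in WT replicate 1 and 0.000987% in WT replicate 2, so the WT libraries also differed. The part of any of these cells in the retinoid results was not tested.

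**Figure D1:**
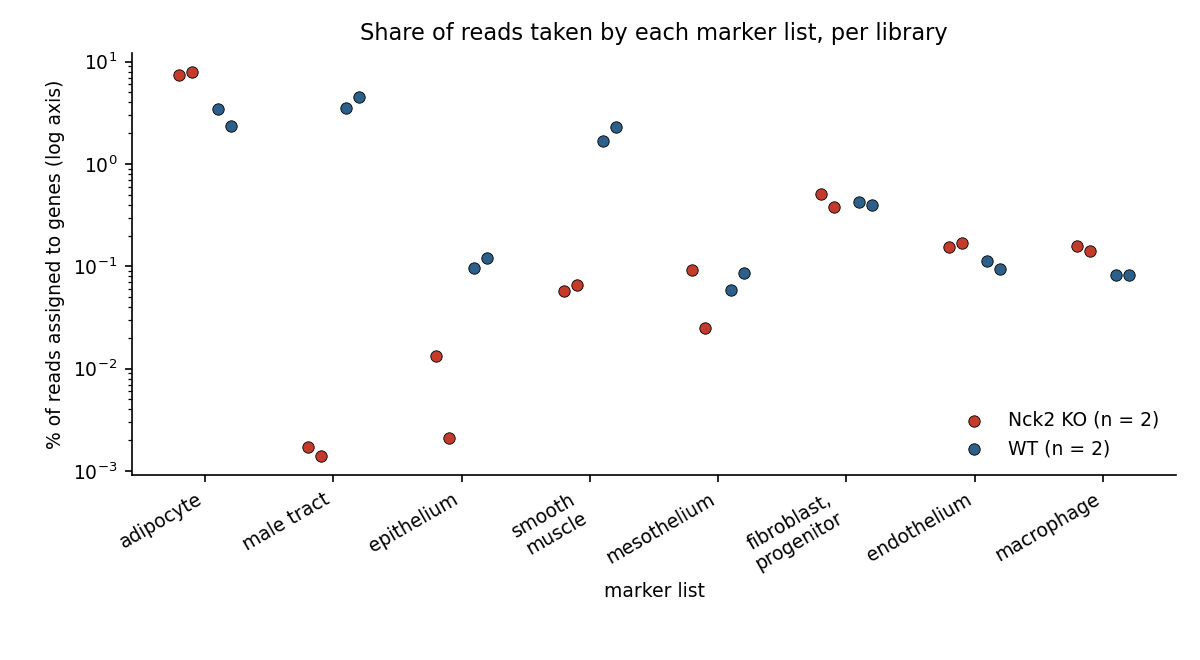
Share of the reads assigned to genes (log axis, percent) taken by each of 8 marker lists, 1 point per library, KO and WT with n = 2 each. The adipocyte share was 7.49% and 7.93% in KO and 3.48% and 2.36% in WT, and the male tract share was at most 0.00173% in KO and at least 3.56% in WT.

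One short sequence is shown first because it ties a measured gene to the ligand of the pathway. Rarb carries the textbook retinoic acid response element, a direct repeat of a hexamer with 5 bases between the copies. The RefSeq promoter windows (250 bases before to 50 after a gene's start, GRCm38.p6) were searched on both strands for a pair of hexamers, each reading AGGTCA or AGTTCA or GGGTCA or GGTTCA, in the same direction with 5 bases between them, for example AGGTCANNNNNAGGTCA. Such a pair stood in 32 of 32851 windows (0.0974%), and 7 of the 9 retinoid genes had a window. Of these 7, Rarb held the repeat, at 53 to 37 bases before its RefSeq start. The 30 bases around it, at chr14:16575507-16575536 on the minus strand, are printed with the 17-base repeat in capitals. GENCODE M21 extends Rarb further upstream than this RefSeq start. Its exons of Rarb and of the opposite-strand gene Gm48162 together cover all 250 bases before the start. These bases were not split by gene.
Rarb: cgggaagGGTTCACCGAAAGTTCActcgca
The same search with 1 or 2 bases between the hexamers found none in the windows of the 7 genes, against 0.222% and 0.268% of all windows.

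For comparison, the 250 bases before a RefSeq start are printed for Rbp4, which rose most, and Stra6, which fell most (below), at chr19:38125322-38125571 on the minus strand and chr9:58128838-58129087 on the plus strand, with any lone hexamer of the kinds above in capitals (on either strand). Both genes have further RefSeq starts, and neither of these windows overlaps an annotated exon.
Rbp4: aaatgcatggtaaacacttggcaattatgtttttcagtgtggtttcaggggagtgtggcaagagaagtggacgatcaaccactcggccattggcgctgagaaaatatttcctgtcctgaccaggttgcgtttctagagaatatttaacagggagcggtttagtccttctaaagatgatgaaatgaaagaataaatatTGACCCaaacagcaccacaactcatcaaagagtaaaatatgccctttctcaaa
Stra6: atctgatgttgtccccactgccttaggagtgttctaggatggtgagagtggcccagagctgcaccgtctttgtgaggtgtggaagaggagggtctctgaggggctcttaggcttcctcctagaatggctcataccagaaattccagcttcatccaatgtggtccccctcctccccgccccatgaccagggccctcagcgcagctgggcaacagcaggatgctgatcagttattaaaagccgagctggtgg
A lone hexamer is common, present in 38.6% of all windows before the start. The Rbp4 stretch held 1, read on the opposite strand, and the Stra6 stretch held none. The windows before the further RefSeq starts of both genes also held none, so this difference depends on the start chosen. The match is a description of letters and says nothing of binding.

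Of the 8 tested retinoid genes, 2 were higher in KO (Rbp4 and Rarb), 3 were lower (Stra6, Crabp2 and Aldh1a1), and 3 did not pass (Aldh1a2, Aldh1a3 and Dhrs9). Across all 16710 tested genes 46.7% were called, 22.4% higher and 24.4% lower, so 5 called of 8 is close to the background of this comparison and is no result about the group as such. Both KO libraries stood above both WT libraries for 4 of the 8 and under them for 3, where 38.9% and 40.6% of all tested genes did so, or 79.5% together. The median log2 fold change of the 8 was -0.07, beside -0.01 over all tested genes. What follows is therefore each gene's own change. In the authors' deposited table the same 5 genes had an adjusted p under 0.05, a threshold passed there by 40.5% of the genes with an adjusted p.

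**Figure D2:**
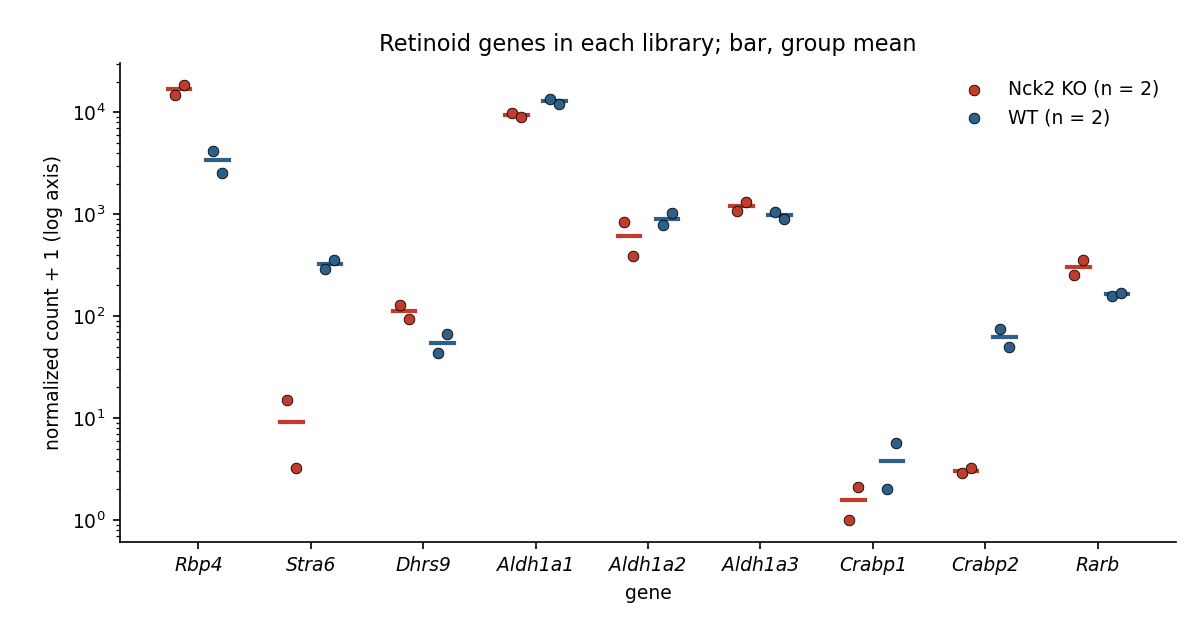
Normalized count + 1 (log axis) of the 9 retinoid genes in each library, ordered from carrier and receptor through enzymes to binding proteins and nuclear receptor; points are libraries (n = 2 per group) and bars group means. Rbp4 stood at 14921 and 18623 in KO against 4205 and 2564 in WT, while Stra6 and Crabp2 stood at 14.1 or less in KO and at 49.3 or more in WT.

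The transport genes moved in opposite directions. Rbp4 (ENSMUSG00000024990, GRCm38 chromosome 19, 38116629 to 38125281, minus strand) encodes the plasma carrier of retinol, made by liver and by adipocytes and also studied as an adipokine. It was at 14921 and 18623 normalized counts in KO and at 4205 and 2564 in WT. Both KO libraries lay well above both WT libraries. Rbp4 rose by 2.34 (SE 0.27, adjusted p = 0.00451), 5.08-fold on that scale, and 208 of the 16710 tested genes (1.24%) had a larger positive fold change. Per kilobase of exon it averaged 12489 ± 1949 in KO and 2520 ± 864 in WT (SD, n = 2 each), rank 77 of 16539 genes with a length in KO and rank 470 in WT. It therefore stood among the top 0.466% of transcripts in KO and the top 2.84% in WT. Leaving out any 1 library gave 1.99 to 2.70, each past the threshold.

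The rise of Rbp4 is set beside the mature adipocyte list. Of its 22 genes 15 rose and 0 fell, where 22.4% and 24.4% of all tested genes did so. The list had a median of 1.68 (log2) and a range of 0.23 to 2.92. Rbp4 at 2.34 lay inside that range and above its median. Lep, encoding leptin, was at 66970 and 127610 in KO against 15060 and 9858 in WT (log2 fold change 2.92), and Adipoq, encoding adiponectin, at 140910 and 142400 in KO against 39441 and 29702 in WT (2.05). Counted per 1000 normalized counts of the adipocyte list, Rbp4 was at 5.60 and 6.21 in KO and at 3.72 and 3.43 in WT. Both KO values stayed above both WT values on that scale, a description with no test. The sum is led by Car3, Lpl and Fabp4 (log2 fold changes 1.48, 1.68 and 1.85), so the scale depends mostly on them. Lep rose more than Rbp4, so a scale on Lep alone would not give this order.

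Stra6 (ENSMUSG00000032327, chromosome 9, 58063788 to 58153996, plus strand) encodes the membrane receptor that takes up retinol from Rbp4, first described as a gene stimulated by retinoic acid. It was at 14.1 and 2.23 normalized counts in KO (17 reads in all) and at 290 and 358 in WT (670 reads). Both KO libraries were near the bottom of the measurable range, and the KO libraries also differed from each other. Stra6 fell by 5.54 (SE 0.79, adjusted p = 0.00761). The summed reads put the KO level at 0.0266 of the WT level, with an exact 95% interval of 0.0154 to 0.0429. That interval covers counting error only and leaves out the spread between libraries. The log2 fold change was -6.65 without KO replicate 1 (adjusted p = 0.00259), -4.43 without KO replicate 2 (adjusted p = 0.00321) and -4.80 with a pseudocount of 5. Without WT replicate 1 it was -5.69 (adjusted p = 0.0891) and without WT replicate 2 it was -5.38 (adjusted p = 0.11), so the call ended without either WT library. In the same libraries 15 of 16 tested male tract genes fell (median -10.93), and 10 of 11 epithelial genes fell (median -7.51). Over all tested genes 24.4% fell. Epcam, a general marker of epithelial cells, was at 12.2 and 8.93 in KO against 3450 and 3498 in WT. The part of these cells in the Stra6 difference was not tested.

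Retinol is first oxidized to retinal by short-chain dehydrogenases, among them Dhrs9, whose retinol dehydrogenase activity was described for the human and rat enzymes. Dhrs9 (ENSMUSG00000027068, chromosome 2, 69380445 to 69404533, plus strand) was at 128 and 92.6 in KO against 42.8 and 65.1 in WT. The groups did not overlap, but the log2 fold change of 1.03 (SE 0.32) had an adjusted p of 0.0561 and did not pass; the authors' deposited table also gave 0.0561.

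The aldehyde dehydrogenases Aldh1a1, Aldh1a2 and Aldh1a3 carry out the last step, the irreversible oxidation of retinal to retinoic acid. Aldh1a1 (ENSMUSG00000053279, chromosome 19, 20492715 to 20643465, plus strand) was the most abundant of these enzymes in every library. It was at 9853 and 8943 normalized counts in KO and at 13535 and 11999 in WT. The KO values were the lower pair, by a small margin. It fell by 0.44 (SE 0.10, adjusted p = 0.0276). The fold change was -0.51 without KO replicate 1 (adjusted p = 0.0564), -0.37 without KO replicate 2 (0.112), -0.35 without WT replicate 1 (0.13) and -0.53 without WT replicate 2 (0.092), so the call needed all 4 libraries. Aldh1a7, a close mouse paralog, went the other way, with 3807 and 5354 in KO against 2641 and 1416 in WT (log2 fold change 1.22, adjusted p = 0.048, not passed in any fit with 1 library left out). Reads of Aldh1a1 and Aldh1a7 may be shared between the copies, so both values are uncertain to that extent.

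Aldh1a2 (ENSMUSG00000013584, chromosome 9, 71215789 to 71296243, plus strand), the enzyme that makes most of the retinoic acid of the early embryo and a gene also expressed in mesothelium, was at 842 and 392 in KO against 778 and 1016 in WT. The groups overlapped, because KO replicate 1 lay between the WT libraries while KO replicate 2 lay below them. The log2 fold change was -0.63 (SE 0.40, adjusted p = 0.258). It was -1.18 without KO replicate 1 (adjusted p = 0.0253, past the threshold) and -0.08 without KO replicate 2. Beside these values, the 11 genes of the mesothelial list summed to 32560 and 9374 normalized counts in KO and to 19060 and 27280 in WT. Of its markers, Wt1 was at 1168 and 418 in KO against 659 and 820 in WT. Upk3b was at 8866 and 1642 in KO against 2271 and 4040 in WT. Others had their lowest value in WT replicate 1. Msln was at 4519 and 709 in KO against 485 and 845 in WT. Lrrn4 was at 3441.5 and 791 in KO against 715 and 1303 in WT. Krt19, shared with the epithelial list, holds much of the WT sums: without it the other 10 genes summed to 30067 and 8955 in KO and to 10696 and 15429 in WT. KO replicate 2 was the lowest library for 7 of the 11 genes and WT replicate 1 for 4 (Msln, Lrrn4, Bnc1 and Bcam). The part of mesothelium in the Aldh1a2 values was not tested.

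Aldh1a3 (ENSMUSG00000015134, chromosome 7, 66390890 to 66427517, minus strand) was at 1063 and 1324 in KO against 1050 and 894 in WT. The groups were adjacent but did not overlap, and the log2 fold change of 0.29 (SE 0.15) did not pass (adjusted p = 0.173). Per kilobase of exon Aldh1a1 averaged 1904 ± 130 in KO and 2586 ± 220 in WT, Aldh1a2 averaged 273 ± 141 in KO and 396 ± 74.2 in WT, and Aldh1a3 averaged 259 ± 40.0 in KO and 211 ± 23.9 in WT (SD, n = 2 each). Summed per kilobase, the Aldh1a enzymes were at 2598 and 2271 in KO and at 3313 and 3073 in WT. Aldh1a1 made up 76.8% and 79.8% of that sum in KO and 82.8% and 79.1% in WT, so it was the main transcript of the set in each library, and the shares overlapped between genotypes.

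Retinoic acid is carried inside cells by Crabp1 and Crabp2, of which Crabp2 delivers it to the nuclear receptors. Crabp2 (ENSMUSG00000004885, chromosome 3, 87948666 to 87953376, plus strand) was at 1.87 and 2.23 normalized counts in KO, 4 reads in all, and at 74.4 and 49.3 in WT, 126 reads. Crabp2 was thus scarce in every library and close to absent in KO. It fell by 4.34 (SE 0.40, adjusted p = 0.00265). The summed reads put KO at 0.0333 of WT, with an exact 95% interval of 0.00892 to 0.0872 (counting error only). The log2 fold change was -3.22 with a pseudocount of 5 and -4.93 with DESeq2 on the recovered reads, and it passed in every fit that left out 1 library. As for Stra6, the WT libraries that held Crabp2 also held the male tract reads, whose part was not tested. Crabp1 (ENSMUSG00000032291, chromosome 9, 54764748 to 54773110, plus strand) had 0 and 1 reads in KO against 1 and 5 in WT, too few for a comparison at this depth. The ratio of KO to WT was 0.174 with an exact 95% interval of 0.0038 to 1.44 (counting error only). With no filter on low values the adjusted p of Crabp1 was 0.278.

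Rarb (ENSMUSG00000017491, chromosome 14, 16430839 to 16819156, minus strand) encodes the beta receptor for retinoic acid. Its induction by the ligand through the repeat printed above is background and was not tested here. The count is for the whole gene, including transcripts that start further upstream. Rarb was at 255 and 357 normalized counts in KO and at 157 and 167 in WT. Both KO libraries lay above both WT libraries, and KO replicate 2 was highest. Rarb rose by 0.89 (SE 0.21, adjusted p = 0.0269), 1.86-fold. Without KO replicate 2 the log2 fold change was 0.65 (adjusted p = 0.0589), without WT replicate 1 it was 0.85 (0.174) and without WT replicate 2 it was 0.94 (0.169). In GENCODE M21, 1793 of the 5265 exon bases of Rarb are shared with Top2b on the opposite strand, and 227 with the antisense gene Gm48162. Reads from those bases cannot be told apart without strand. Top2b, a DNA topoisomerase gene, was at 4992 and 5200 in KO against 4275 and 4378 in WT (log2 fold change 0.24, adjusted p = 0.0391), and passed in no fit with 1 library left out (adjusted p 0.0896 to 0.155).

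**Figure D3:**
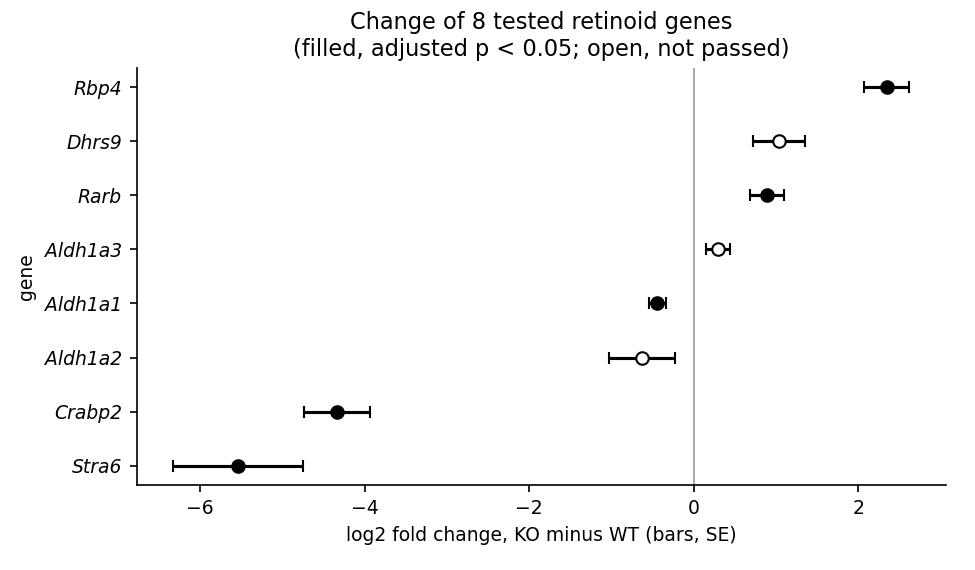
Log2 fold change (KO minus WT, with SE) of the 8 tested retinoid genes; filled points had an adjusted p under 0.05. Values run from -5.54 for Stra6 to 2.34 for Rbp4, and the Aldh1a enzymes lie between -0.63 and 0.29.

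The remaining receptors were read from a list of 5, of which 3 rose, 0 fell and 2 did not pass, with a median of 0.65. Of all tested genes 22.4% rose and 24.4% fell, and 5 genes are too few to describe the receptors as a group. Rxrg, the retinoid X receptor with the most restricted expression, was at 707 and 714 in KO against 252 and 228 in WT and rose by 1.56 (SE 0.10, adjusted p = 0.00137), in each fit that left out 1 library too. Rxra, the partner of PPAR gamma in adipocytes, was at 7814 and 9779 in KO against 5663 and 4205 in WT (log2 fold change 0.84, adjusted p = 0.0264). Rarg was at 2576 and 2363 in KO against 1656 and 1818 in WT (0.51, adjusted p = 0.0113). Rxra passed without KO replicate 1 and in no other fit with 1 library left out (0.68 without KO replicate 2, 1.06 without WT replicate 1 and 0.63 without WT replicate 2). Rarg passed without either KO library but not without WT replicate 1 (0.44) or WT replicate 2 (0.57). Rara was at 834 and 1227 in KO against 709 and 585 in WT (0.65, adjusted p = 0.0737; 0.93 and adjusted p = 0.025 without KO replicate 1), and Rxrb was at 1346 and 1410 in KO against 1472 and 1419 in WT (-0.07, adjusted p = 0.44). These levels are set beside the adipocyte median of 1.68, and the part of adipocyte content was not tested.

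**Figure D4:**
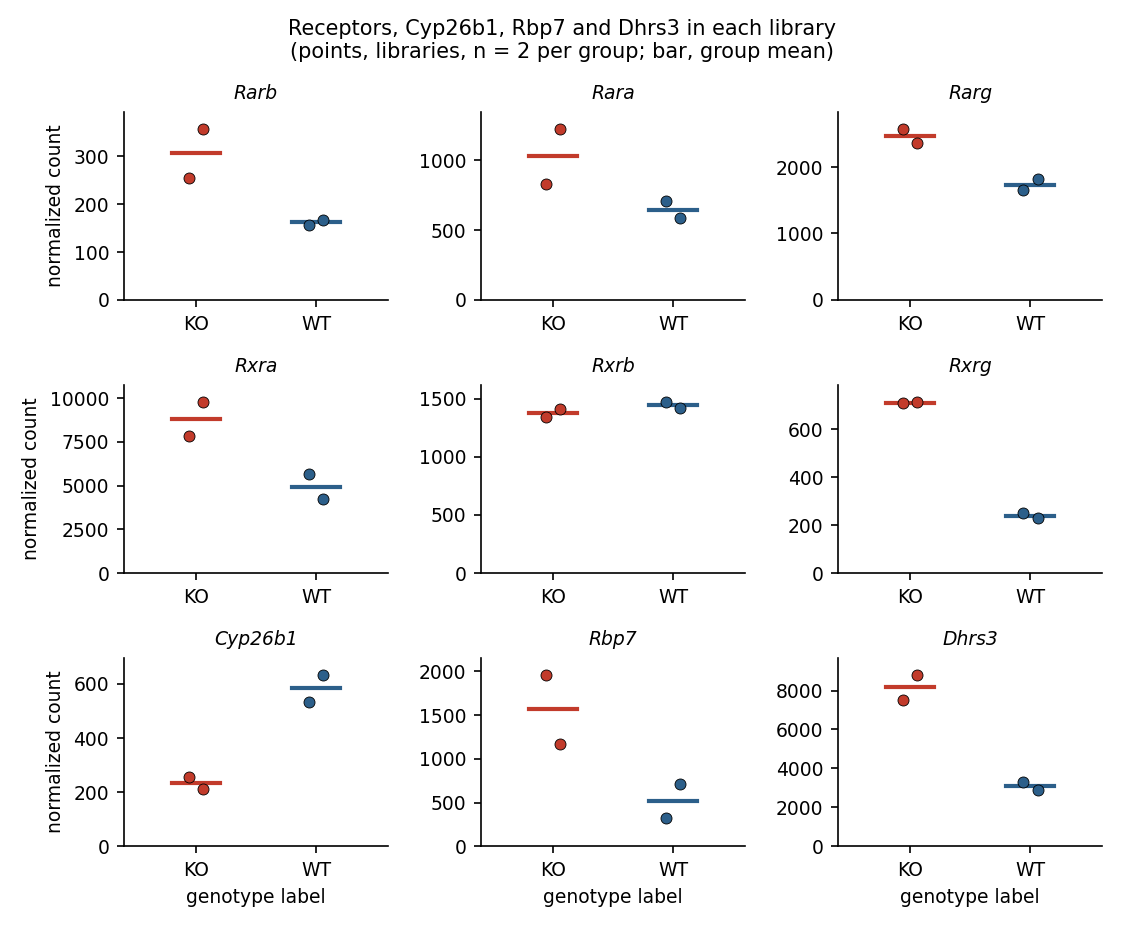
Normalized counts, on axes from 0, of the nuclear receptors, Cyp26b1, Rbp7 and Dhrs3 in each library (n = 2 per group; bars, group means). Rxrg stood at 707 and 714 in KO against 252 and 228 in WT, Cyp26b1 at 255 and 212 in KO against 535 and 633 in WT, and the KO and WT values of Rxrb lay close together.

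Over the wider pathway, 74 further genes on 8 lists were in the table and 56 were tested. Of the 56, 15 rose and 14 fell, or 26.8% and 25% against the background of 22.4% and 24.4%, and the median was 0.07. The counts were 5 higher and 5 lower without WT replicate 2, and 8 lower without WT replicate 1. Among 6 tested genes of carriers, uptake and storage, 3 rose and 1 fell (median 0.19). Rbp7, a cellular retinol binding protein of adipose tissue, was at 1959 and 1172 in KO against 323 and 712 in WT (1.66, SE 0.47, adjusted p = 0.045). It passed in no fit with 1 library left out (1.09 to 2.23). Dgat1 and Lipe, which also act on retinyl esters besides triglyceride, rose by 1.22 (adjusted p = 0.00632) and 1.61 (adjusted p = 0.0128). Lipe did not pass without KO replicate 2 (1.57, adjusted p = 0.0513) or WT replicate 2 (1.24, adjusted p = 0.0678).

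Of 17 tested genes for oxidation and reduction of retinol and retinal and for carotene cleavage, 3 rose and 5 fell (median 0.02). Over all tested genes 22.4% rose and 24.4% fell. Dhrs3, a retinal reductase that is induced by retinoic acid and turns retinal back to retinol, was at 7530 and 8797 in KO against 3298 and 2912 in WT and rose by 1.39 (SE 0.11, adjusted p = 0.00208; adjusted p = 0.0517 without WT replicate 2). Adh1, a cytosolic alcohol dehydrogenase active on retinol, was at 3385 and 3603 in KO against 5753 and 5598 in WT and fell by 0.70 (SE 0.07, adjusted p = 0.00285; adjusted p = 0.0508 without WT replicate 2). Adh4, of the same family, was at 58.1 and 49.1 in KO against 4.08 and 5.58 in WT (3.23, adjusted p = 0.00372). Rdh10, the retinol dehydrogenase required in the embryo, was at 658 and 589 in KO against 550 and 589 in WT and did not pass (0.13, adjusted p = 0.341). Of the aldehyde dehydrogenases beside the 3 described, Aldh8a1 was at 1.87 and 1.12 in KO against 41.8 and 46.5 in WT, and fell by 4.19 (SE 0.40, adjusted p = 0.00292).

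Retinoic acid is broken down by Cyp26 enzymes. Of 6 genes on the breakdown list 3 were tested, and 2 fell, 0 rose and 1 did not pass. Over all tested genes 24.4% fell and 22.4% rose, and 3 genes are too few to describe a group. The median of -1.20 is the value of Cyp1b1, which is not a Cyp26 enzyme. It therefore does not describe breakdown genes as a set. Cyp26b1 was at 255 and 212 in KO against 535 and 633 in WT and fell by 1.32 (SE 0.15, adjusted p = 0.00455), with an adjusted p of 0.053 without WT replicate 1 and 0.0776 without WT replicate 2. Cyp1b1, a cytochrome with retinoid substrates among others, was at 2167 and 2043 in KO against 4479 and 5233 in WT (-1.20, SE 0.10, adjusted p = 0.00214). Cyp2s1 was at 1117 and 368 in KO against 190 and 312 in WT (2.63-fold, adjusted p = 0.125; log2 fold change 2.20 and adjusted p = 0.0217 without KO replicate 2, 0.60 without KO replicate 1). Cyp26a1, the inducible form, was at 5.62 and 7.81 in KO against 12.2 and 7.44 in WT and was below the filter.

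Of 13 tested genes known to respond to retinoic acid, 4 rose and 5 fell (median -0.18). Over all tested genes 22.4% rose and 24.4% fell, so these counts are no result about the group. Among the 13, the 3 with the smallest p fell. Nr2f2, a COUP transcription factor, was at 1138 and 1300 in KO against 4612 and 5583 in WT and fell by 2.06 (SE 0.13, adjusted p = 0.00124). Its relative Nr2f1 was at 214 and 228 in KO against 851 and 1064 in WT and fell by 2.10 (SE 0.14, adjusted p = 0.00147). Foxa1, an epithelial transcription factor, had 1 read in KO and was at 94.8 and 92.1 in WT (adjusted p = 0.00229; adjusted p = 0.0506 without WT replicate 2). Nr2f2 is also expressed in smooth muscle and other stroma, and the smooth muscle list fell in 11 of 12 genes (median -4.51), whose part was not tested. Those that rose included Rarres2, which encodes the adipokine chemerin, Hic1 and Klf4, named after their values were seen. Hic1 did not pass without WT replicate 2 (0.66). Rarres2 was at 14146 and 11082 in KO against 3246 and 3838 in WT (1.83, SE 0.16, adjusted p = 0.00235; adjusted p = 0.0517 without WT replicate 2). Fabp5, which can carry retinoic acid, was at 4216 and 5076 in KO against 1255 and 1141 in WT (1.95, SE 0.12, adjusted p = 0.00116). Of 9 tested corepressors and coactivators of the receptors 0 passed in limma, where 46.7% of all tested genes did so. Their fold changes lay between -0.14 and 0.34. At an unadjusted p under 0.05 the count was 1, and after adjustment 0 passed in edgeR and 1, Ncor1, in DESeq2. Ncor1 was at 9065 and 8971 in KO against 7042 and 7828 in WT (0.28, adjusted p = 0.0511).

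**Figure D5:**
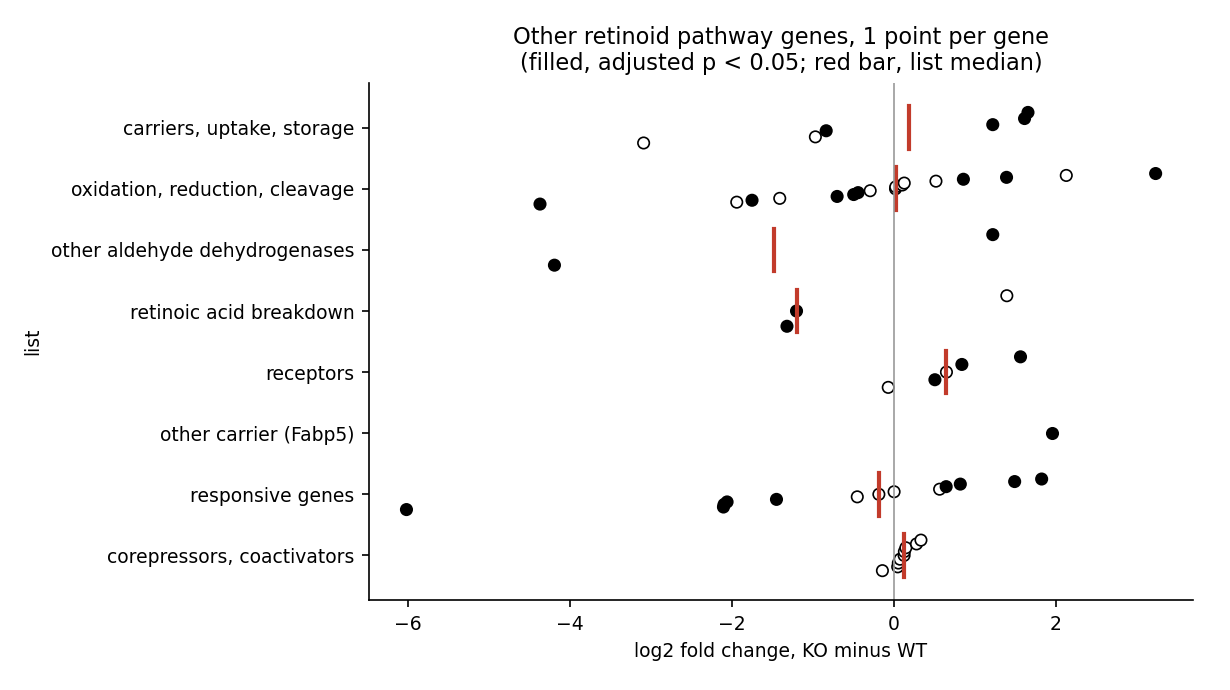
Log2 fold change (KO minus WT) of the 56 tested pathway genes by list, 1 point per gene, filled where the adjusted p was under 0.05; red bars are list medians. The receptor list lies at -0.07 to 1.56, the corepressor and coactivator list stays between -0.14 and 0.34 with no filled point, and the responsive genes spread from -6.02 to 1.83.

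Genes of most similar pattern were found by the distance between log2 values over the 4 libraries, each centred on the gene's mean, among the 14030 genes averaging at least 50. With 4 libraries many genes lie close, so this is a description. Nearest to Rbp4 were Fads3, Slc25a25 and Tenm4 (distances 0.17, 0.18 and 0.21 in log2 units). Fads3, a fatty acid desaturase family member, was at 22400 and 29540 in KO against 5660 and 3856 in WT. Nearest to Stra6 were Fhad1, Cdh6 and Mansc4 (0.22, 0.31 and 0.31), each with 0 in KO replicate 2. Nearest to Aldh1a2 were Gas1, Gm20400 and Nbl1 (0.12, 0.18 and 0.20). Gas1 was at 3538 and 1771 in KO against 3641 and 4415 in WT, with the same low value in KO replicate 2. Rarb had Rab7l1, Hbb-bs and Gpr137b-ps at 0.10 each, and Aldh1a1 had Mtmr4, Ogn and 2610002M06Rik at 0.03, 0.04 and 0.04. Aldh1a3 had Srek1ip1, Deb1 and Nlrx1 (0.03, 0.04 and 0.04), and Dhrs9 had Gpr132, Gm26917 and Sdcbp2 (0.17, 0.20 and 0.20).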

How the data were processed

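RNA of 4 libraries was sequenced, and the labels give each library its genotype. The submitters' processing notes name CASAVA 1.8, TopHat2 2.0.10, HTSeq 0.5.3, DESeq2 1.4.5 and GRCm38; whether reads were assigned by strand is not stated there or in the labels. The authors deposited 1 signal per gene and library, a read count scaled by a size factor, for 39179 genes. A second table deposited by the authors holds their KO against WT results: a log2 fold change, a p-value and a test score for each gene. Whole reads were recovered from the smallest step in each library (100% of values were whole within 0.01).

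The main test was limma 3.58.1 (R 4.3.3), with a trend in mean level, on log2 of the normalized count plus 1. It covered the 16710 genes averaging 10 or more, and Benjamini-Hochberg adjusted p-values were called at 0.05. Adding 1 makes the fold changes of scarce transcripts smaller. The retinoid genes and all lists were chosen with earlier results of these data known. The genes named besides the 9 are, for each pathway list, up to 3 with the smallest p, the receptors, Rbp7, Cyp26a1 and Cyp26b1, for each marker list up to 3 with the highest mean, and the 3 nearest in pattern to each retinoid gene averaging 50 or more; any other gene was named after its values were seen, and some that the rule or a list holds are not reported here. Alternatives were other pseudocounts, filters and scalings, robust moderation, a replicate block, the recovered reads in edgeR 4.0.16 and in DESeq2 1.42.0, and each library left out, which leaves a lone sample assumed to vary like the other group. The limma and edgeR fits were run on simulated counts with the same dispersion for every gene and far fewer changed genes than were called here. That run therefore says little of the adjusted p-values of these data. Positions and exon lengths came from GENCODE M21 (GRCm38, 96% of genes), promoter sequences from RefSeq (GRCm38.p6). Counting intervals cover counting error only.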

Additional observations from a re-analysis of the deposited data

How the results depend on the processing

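Under the 14 alternatives, none of the fold changes of the 8 tested retinoid genes changed sign. The median log2 fold change of all tested genes, -0.01, lay near 0 and ran from -0.096 with no filter to 0.026 at a mean of 50 or more, where 3588 genes were higher and 3354 lower. For pathway genes outside the 9, single fold changes were compared only with 1 library left out. Pseudocounts, filters, scalings, robust moderation, edgeR and DESeq2 left the call of each of the 8 tested retinoid genes as it was, except that a mean of 50 or more leaves out Crabp2. Same-numbered libraries did not deviate together (correlation of the replicate differences of KO and WT, -0.009), and with a replicate block the retinoid genes were again 2 higher and 3 lower, with log2 fold changes as without it. Leaving out a library was the setting that changed calls. Over the 4 such fits the retinoid genes higher in KO numbered 1 to 2 and those lower 1 to 3, the pathway genes 5 to 13 and 5 to 17, and all genes 650 to 2849 higher and 1163 to 3477 lower. The log2 fold change ranged from -0.53 to -0.35 for Aldh1a1, from -1.18 to -0.078 for Aldh1a2, from -6.65 to -4.43 for Stra6 and from 0.65 to 1.13 for Rarb, with highest adjusted p-values of 0.13, 0.78, 0.11 and 0.174. Rbp4 and Crabp2 passed in all 4. The cause of these lost calls was not tested. Depth limits Crabp1, Crabp2 and Stra6 in KO, with 1, 4 and 17 reads.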
